A study of Arabidopsis thaliana with 4 samples.

Results

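ANX1 (AT3G04690) and ANX2 (AT5G28680), receptor kinases of the pollen tube, and AT59 (AT1G14420), a pectate lyase of late pollen, were followed in cut Arabidopsis inflorescences before and after a day in the dark. The members were the probe sets that the platform annotation pairs with these symbols alone, 1 for each gene, which gave 3 of the 22746 probe sets in the table. The members were selected on their measured change between the groups, so that change is given for them as a description and without a test.

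All arrays came from Arabidopsis thaliana of ecotype Ler-0, and the labels name no transgene or mutation. Plants were 5 weeks old, and immature inflorescences of their primary bolts were cut 11 h into a light period of 16 h. The group T0 was frozen at once (2 arrays), although its treatment label carries the same words as that of the other group. The group T24 spent 24 h on wetted paper in a closed black box at 21 °C, dark and without any supply from the plant (2 arrays). For each time point 10 inflorescences from separate plants were pooled, and whether each array had a pool of its own is not stated. Neither group was left attached, kept in light or fed sugar, so cutting, darkness, loss of supply and the passing of 24 h cannot be told apart.

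ANX1 and ANX2 are closely related members of the CrRLK1L family, plasma membrane kinases whose outer part resembles malectin and which bind RALF peptides. They are known from pollen tubes, where they act together to keep the growing tube wall intact until the tube reaches the ovule, and plants lacking both have pollen tubes that burst early. Pectate lyases cut de-esterified pectin, and pollen makes several of them late in its development, when it is preparing a wall that will soften and extend at the tube tip. An inflorescence is a mixed tissue with buds of several ages, and which of its cells gave these signals was not measured.

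Values are log2 signals as the authors summarised them with RMA, and a change is T24 minus T0 on that scale. They ran from 2.71 to 14.44 in the table, with array medians between 6.08 and 6.29. RMA gives no detection calls, and a mean under 5, as 35.5% of probe sets had over the 4 arrays, is treated here as near the background, where changes are compressed. Pearson's r across probe sets was 0.954 between the T0 arrays and 0.961 between the T24 arrays. The median change of all probe sets was -0.0048. Of 8 carpel and petal markers listed 2 were measured, SPT with signals of 6.72 to 8.49 and AT3G12000 with 3.84 to 8.73. Their changes were 0.84 and -1.29, with overlapping groups in both, and AP3 and PI were not analysed here.

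ANX1 stood near the background at T0, with signals of 4.83 and 4.58 on the log2 scale, and had 6.72 and 7.21 at T24. Both T24 arrays lay above both T0 arrays. The group means were 4.70 ± 0.18 and 6.97 ± 0.35 (SD, n = 2 each). Their difference of 2.26 ± 0.26 (SE of the fit) is 4.80-fold, an approximate size that is likely too small, because the T0 signals are near the background and compressed. Since these are whole inflorescences, more cells holding a transcript and more of it per cell cannot be told apart, for ANX1 or for any gene that follows.

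ANX2, its paralogue, had T0 signals of 4.39 and 5.01, again near the background, and T24 signals of 7.77 and 9.33. The groups did not overlap, but the T24 arrays lay 1.56 apart, a gap wider than that of 97.1% of all probe sets. The mean went from 4.70 ± 0.44 to 8.55 ± 1.11 (SD, n = 2 each). This change of 3.85 ± 0.61 (SE), or 14.5-fold, is approximate for the same reason. Taking each T24 array against each T0 array, the differences ran from 1.89 to 2.63 for ANX1 and from 2.76 to 4.95 for ANX2. With both genes near the background at T0, how far their changes differ cannot be read exactly from these ranges.

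AT59 was above the background before the holding, at 6.60 and 6.19, and reached 10.56 and 10.63 on the T24 arrays. These lay 0.07 apart, in contrast to those of ANX2. The group means were 6.39 ± 0.29 and 10.60 ± 0.05 (SD, n = 2 each), and the change of 4.20 ± 0.23 (SE) is 18.4-fold. The differences between single arrays ran from 3.96 to 4.45 and fell within the range of ANX2.

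**Figure D1:**
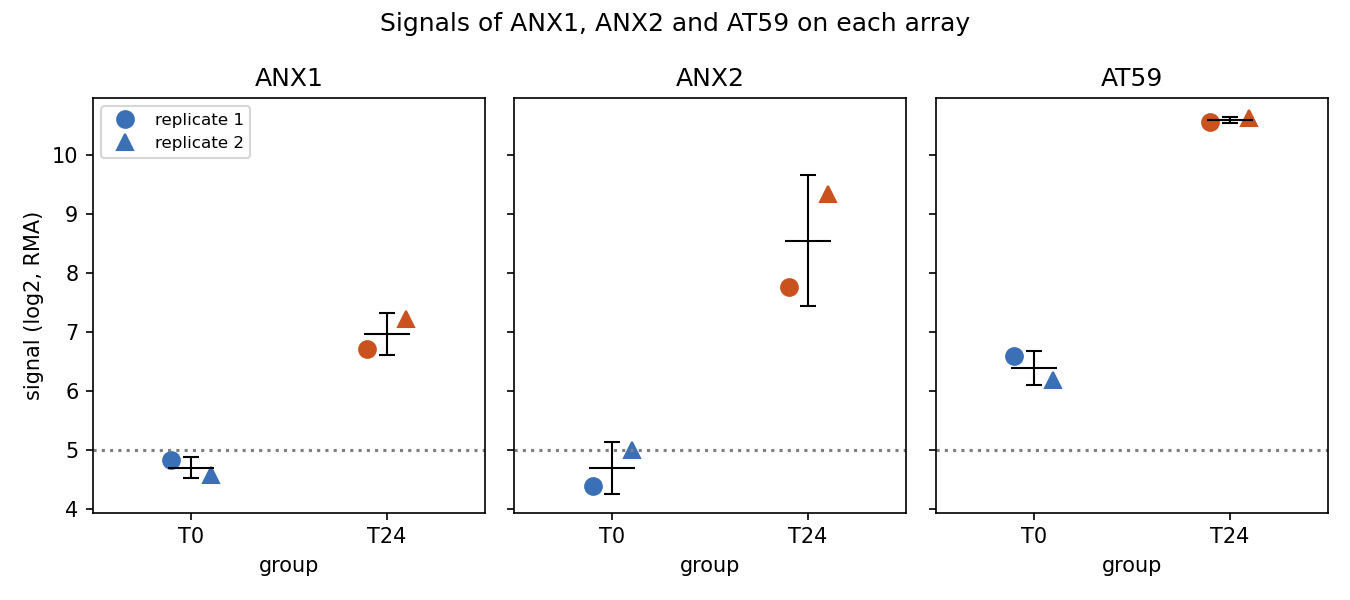
Log2 RMA signal of ANX1, ANX2 and AT59 (vertical axis) in T0 and T24 (horizontal axis), with circles for replicate 1, triangles for replicate 2, and black marks for the mean ± SD of the 2 arrays. The dotted line is at 5, below which signals are near the background; ANX1 and ANX2 start around it, and the T24 arrays of ANX2 lie 1.56 apart against 0.07 for AT59.

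On its own array, ANX1 was at the 35.3 and 31.1 percentile of all probe set signals at T0 and at the 57.8 and 64.5 percentile at T24. ANX2 went from 29.6 and 36.4 to 72.3 and 90.5. For AT59 the percentiles were 55.2 and 48.6 at T0, near the middle of the array, and 96.2 and 97.0 at T24, among its brightest probe sets. These percentiles place the signal within the range of the array and do not rank the amounts of the transcripts, since probes differ in brightness. Ordered by their change among the 22746 probe sets, from the largest rise down, AT59 was number 96, ANX2 number 140 and ANX1 number 776. The ranks of ANX1 and ANX2 rest on compressed T0 signals, unlike that of AT59. All 3 were among the 6.39% of probe sets (1454) that limma called higher at T24 at an adjusted p under 0.05, which follows from how they were chosen.

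The genes patterned most like each member were found over the 4 arrays as the single-gene probe sets with the smallest Euclidean distance, each centred on its own mean. Nearest to ANX1 were the loci AT2G24320 (distance 0.15), AT4G27350 (0.17) and AT3G29060 (0.17), which changed by 2.19, 2.14 and 2.10. Nearest to ANX2 were AT5G45310 (0.26), AT1G49290 (0.30) and AT1G76370 (0.33), with changes of 3.89, 3.83 and 3.73 and the higher T24 signal on replicate 2 in each. For AT59 they were AT3G16040 (0.32), GH9A4 (0.37), which belongs to the glycosyl hydrolase family of endoglucanases, and AT2G02720 (0.40), with changes of 4.41, 3.89 and 4.01. AT2G02720 is a locus of the pectate lyase list described further on. The receptor genes were not close to each other by this measure. Their distance was 1.87, and ANX1 ranked number 243 among the neighbours of ANX2, while AT59 ranked number 110. With 4 arrays in 2 groups, distance reflects mostly the size of the change and the gap between replicates.

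In the CrRLK1L family most loci did not pass, and the changes above 1 lay in ANX1, ANX2 and the loci AT4G39110 and AT2G21480. Of 17 listed loci 12 were measured, 8 of them with a mean of at least 5. Apart from ANX1 and ANX2, 1 of 10 was called higher and 0 were called lower, against 6.39% of all probe sets called higher and 6.84% called lower. Their median change was 0.49, against -0.0048 for all probe sets. Both T24 arrays lay above both T0 arrays for 7 of the 12, against 27.4% of all probe sets, and below for 0, against 30.0%. The 7 include ANX1 and ANX2, which were chosen on this change.

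AT4G39110 was the locus called higher, and its arrays read 6.21 and 5.86 at T0 and 8.87 and 9.80 at T24. It rose by 3.30 ± 0.39 (SE, adjusted p = 0.0215 in limma), or 9.83-fold, and its groups were well apart. AT2G21480 had 4.16 and 4.10 against 5.00 and 5.93, all but the last near the background, with a change of 1.33 ± 0.37 that did not pass (adjusted p = 0.0974). As with ANX1 and ANX2, both loci had their higher T24 signal on replicate 2.

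FER, the FERONIA receptor that acts in fertilisation on the female side and in growth of many tissues, was bright on every array. It read 9.46 and 9.64 at T0, then 10.11 and 10.57 at T24, a change of 0.79 ± 0.24 (adjusted p = 0.12). THE1, the THESEUS1 receptor that senses cell wall damage in growing cells, had 7.50 and 7.75 at T0. At T24 it had 8.53 and 7.46, so its groups overlapped, and the change was 0.37 ± 0.42 (adjusted p = 0.659). The other 6 measured loci changed by between -0.01 and 0.66, and none passed; of these AT5G24010 and AT5G59700 had groups that did not overlap.

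**Figure D2:**
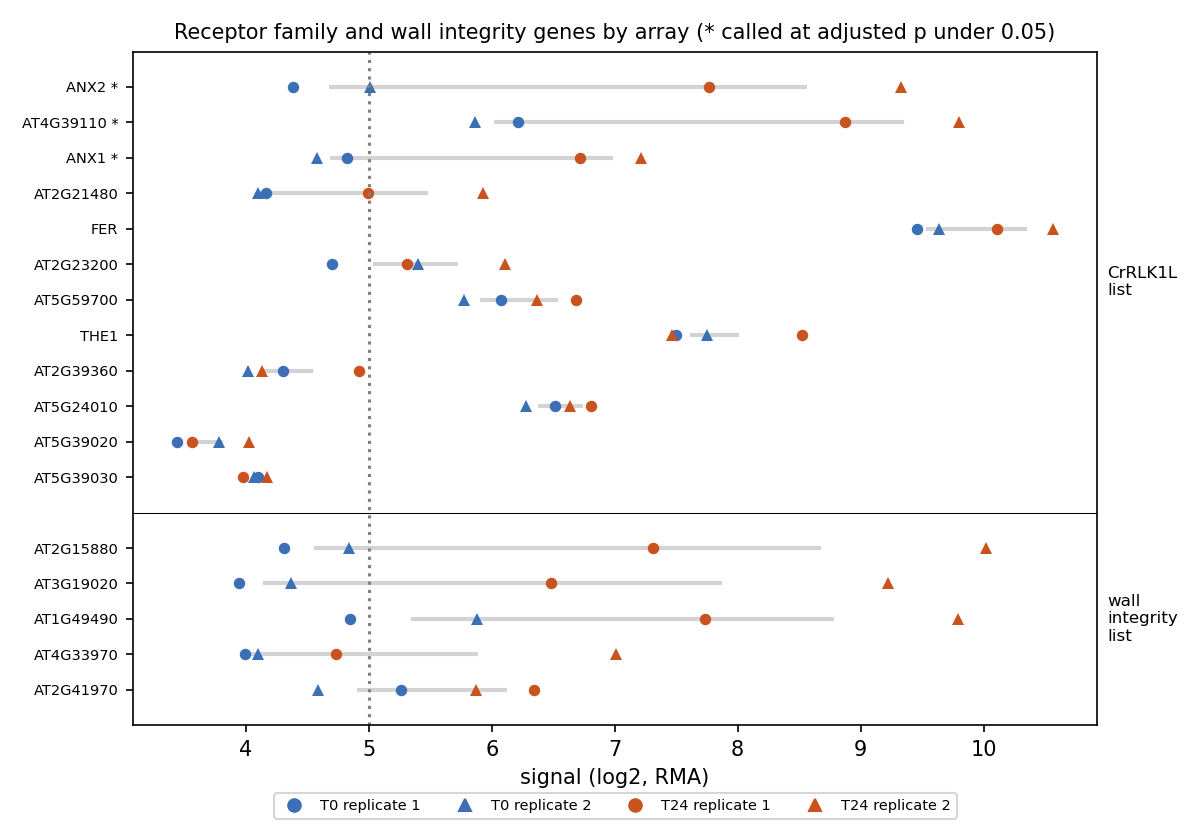
Log2 RMA signal on each array (horizontal axis) for the 12 measured genes of the CrRLK1L list and the 5 of the wall integrity list, ordered by change, with blue for T0, orange for T24, circles for replicate 1, triangles for replicate 2, grey bars between the means, a dotted line at 5 and asterisks for genes called in limma. ANX1, ANX2 and AT4G39110 are apart between groups, FER is high throughout, and 4 loci of the wall integrity list are far higher on the second T24 array than on the first.

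The wall integrity list held loci for co-receptors, leucine-rich extensin wall partners, RALF peptides, oxidases and cytoplasmic kinases of the pollen tube, written by locus code. Only 5 of its 18 loci were measured, and the co-receptors, the RALF peptides RALF4 and RALF19 and the oxidases were not analysed here. None of the 5 passed, although the T24 arrays lay above the T0 arrays for all 5, as they did for 27.4% of all probe sets, and the median change was 3.40. In the same limma fit 4 of them had an unadjusted p under 0.05, as 6907 of all 22746 probe sets did. With probe sets of a mean under 5 left out 2 of them passed, as did 3240 of the 14678 probe sets kept.

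AT2G15880 had 4.31 and 4.84 at T0 and 7.31 and 10.02 at T24, a change of 4.09 ± 0.98 (adjusted p = 0.074). For AT3G19020 the signals were 3.94 and 4.36, then 6.49 and 9.22, and the change was 3.70 ± 0.99 (adjusted p = 0.0903). AT1G49490 went from 4.85 and 5.88 to 7.74 and 9.79, by 3.40 ± 0.83 (adjusted p = 0.0755). These changes were of the size of that of ANX2 or near it. They are approximate, because every T0 signal of the 3 loci but the 5.88 of AT1G49490 was near the background. The second T24 array exceeded the first by 2.06 to 2.74 in these 3 loci, more than in ANX2. AT4G33970 had 4.00 and 4.10 against 4.74 and 7.01 (change 1.82 ± 0.82, adjusted p = 0.24). AT2G41970, at 5.26 and 4.58 against 6.34 and 5.87, changed by 1.19 ± 0.34 (adjusted p = 0.102) and was the locus of the 5 with its higher T24 signal on replicate 1.

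Other receptor kinases listed for the pollen tube gave 3 measured loci of 11 and 0 of them passed in limma. An unadjusted p under 0.05 was found for 6907 of the 22746 probe sets and for 1 locus of this list. That locus, AT4G28650, read 4.59 and 4.45 at T0 and 3.96 and 3.80 at T24, all near the background (change -0.64 ± 0.19, adjusted p = 0.109). The brightest locus of this list was AT4G08850, at 4.11 and 5.49 against 6.01 and 6.28 (change 1.34 ± 0.52, adjusted p = 0.188). None of the 10 loci listed for ion channels, pumps and calcium-dependent kinases of the tube was measured through a single-gene probe set.

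In the pectate lyase family, to which AT59 belongs, the loci that passed went both ways, and most did not pass. Of 26 listed loci 23 were measured, 17 with a mean of at least 5. Besides AT59, 3 of 22 were called higher and 3 lower, against 6.39% and 6.84% of all probe sets, and 16 did not pass. The median change of the 22 was -0.72, against -0.0048 for all probe sets. T24 lay below T0 without overlap in 11 of the 23 and above it in 5, where 30.0% and 27.4% of all probe sets did so. The 5 include AT59, which was chosen on this change.

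AT2G02720 was the largest riser after AT59. Its signals of 5.41 and 5.24 at T0 and 9.08 and 9.59 at T24 gave a rise of 4.01 ± 0.25 (16.1-fold, adjusted p = 0.0143 in limma). AT5G15110 rose by 3.72 ± 0.32 (13.2-fold, adjusted p = 0.0158), from 6.40 and 5.68 to 9.62 and 9.90. These 2 loci and AT59 had low or middling signals at T0 and T24 arrays within 0.51 of each other. AT3G01270 already read 10.14 and 9.14 at T0 and rose by 2.65 ± 0.40 to 12.14 and 12.44 (6.28-fold, adjusted p = 0.0319).

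The 3 loci that fell read between 8.44 and 10.36 at T0 and between 4.85 and 6.44 at T24. AT3G53190 read 9.37 and 10.36, then 6.05 and 5.76, and fell by 3.96 ± 0.40 (15.6-fold lower, adjusted p = 0.0181). AT1G67750 went from 9.11 and 9.16 to 5.63 and 4.85, and fell by 3.90 ± 0.32 (14.9-fold lower, adjusted p = 0.0157). AT4G24780 had 9.88 and 8.44 against 6.44 and 5.58, and fell by 3.15 ± 0.61, narrowly past the threshold (adjusted p = 0.0496). That call was lost with arrays centred on their medians (adjusted p = 0.0552) and with robust variances (adjusted p = 0.0538).

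AT1G04680 stayed just outside the threshold (change -3.35 ± 0.67, adjusted p = 0.0515), and so did AT3G09540 (-1.03 ± 0.20, adjusted p = 0.0503). The T24 signals of AT3G09540, 4.12 and 4.19, were near the background, so the size of its change is approximate. Some other loci differed more between the arrays of a group than between groups. AT5G48900 read 9.93 and 7.99 at T0 and 9.67 and 7.81 at T24, and AT1G30350 had T0 arrays 3.31 apart beside a change of -2.07 ± 1.34. AT3G55140 was level, at 7.76 and 7.94 against 7.91 and 7.63 (change -0.09 ± 0.21). AT5G04310 had 2 probe sets, with changes of 0.18 and 0.07, and the brighter was used.

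**Figure D3:**
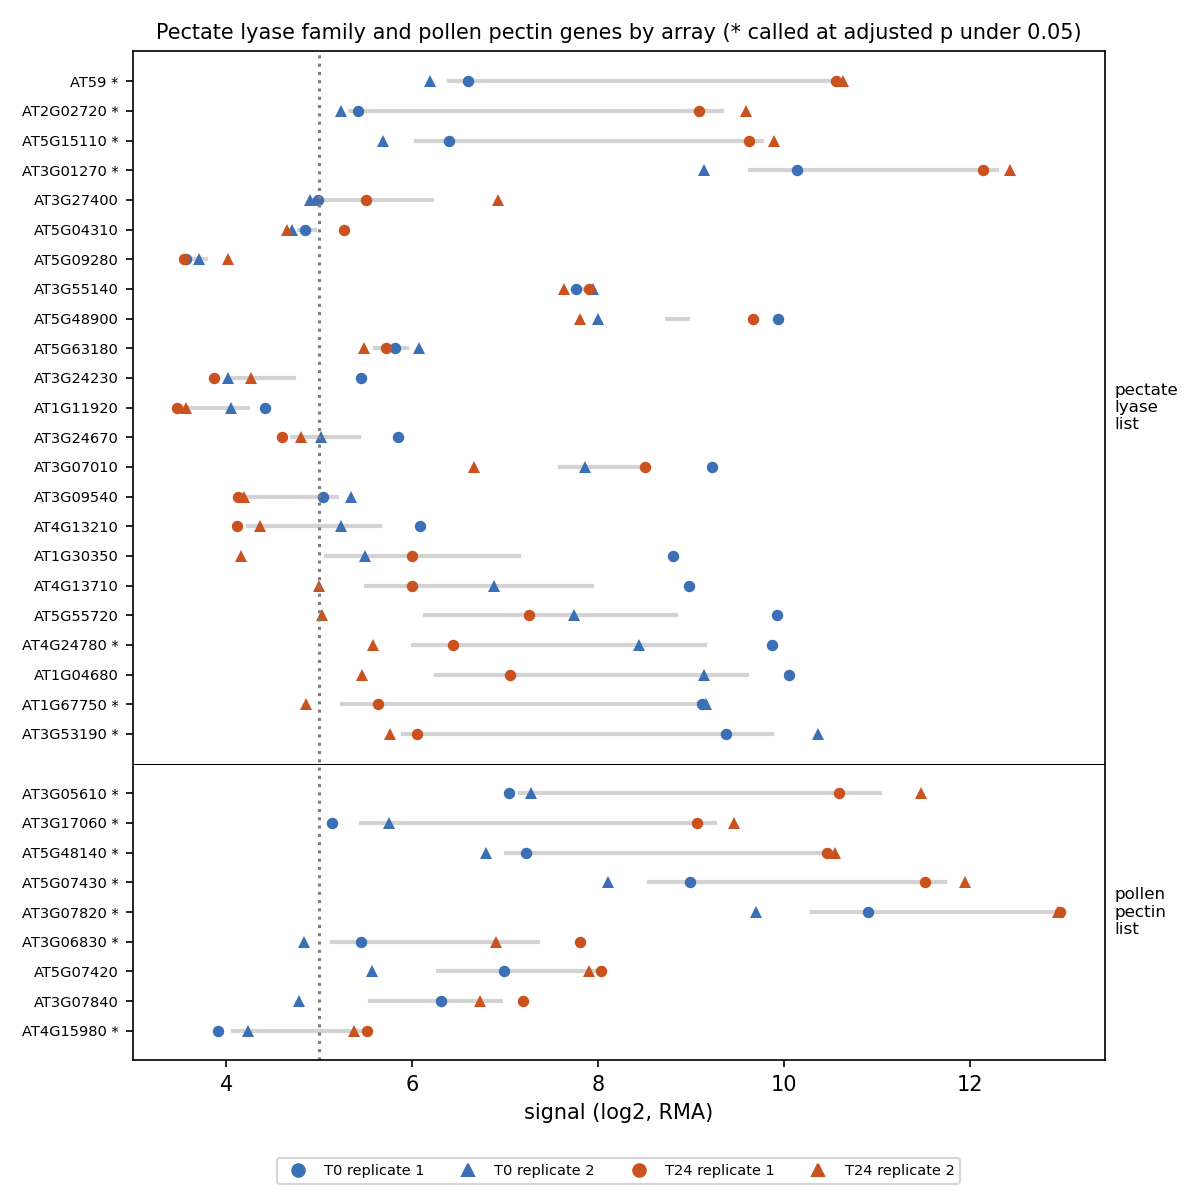
Log2 RMA signal on each array (horizontal axis) for the 23 measured genes of the pectate lyase list and the 9 of the pollen pectin list, drawn with blue for T0, orange for T24, circles for replicate 1, triangles for replicate 2, grey bars between the means, a dotted line at 5 and asterisks for genes called in limma. AT59 and 3 other pectate lyase loci are higher at T24, 3 are lower, and all 9 pollen pectin loci are higher at T24 without overlap.

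Other pectin enzymes listed for pollen, which are pectin methylesterases, polygalacturonases and their relatives, were higher at T24. Of 20 loci 9 were measured, and 7 of the 9 rose, 0 fell and 2 did not pass, against 6.39% of all probe sets called higher. The median change was 2.66, and T24 lay above T0 for all 9, as it did for 27.4% of all probe sets. AT3G05610 rose by 3.87 ± 0.36 (14.6-fold, adjusted p = 0.0169), from 7.04 and 7.28 to 10.60 and 11.47. AT3G17060 rose by 3.82 ± 0.31 (14.1-fold, adjusted p = 0.0157), from 5.14 and 5.75 to 9.07 and 9.46. AT5G48140, whose T24 arrays read 10.46 and 10.55 and were about as close as those of AT59, rose by 3.50 ± 0.23 from 7.23 and 6.79 (11.3-fold, adjusted p = 0.0143). The other 4 that rose did so by 1.38 to 3.18, and the call of AT3G06830 (2.21 ± 0.42, adjusted p = 0.0469) was lost with robust variances (adjusted p = 0.051).

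Transcription factors listed for late pollen and the pollen tube had 7 of 12 loci measured, of which 4 rose, 0 fell and 3 did not pass, with a median change of 1.34. Of all probe sets 6.39% were called higher and 6.84% lower, and their median change was -0.0048. The MADS-box factors AGL104, AGL66 and AGL65 are known to act in maturing pollen, and AGL66 and AGL104 together are needed there for the late gene programme. AGL104 had 4.66 and 3.82 at T0 and 5.99 and 6.13 at T24, and rose by 1.82 ± 0.35 (3.54-fold, adjusted p = 0.0472 in limma, 0.0512 with robust variances). Its T0 signals were near the background, so the size is approximate. AGL66 rose by 1.57 ± 0.25 (2.96-fold, adjusted p = 0.0347), from 5.63 and 5.13 to 7.03 and 6.86. The bZIP18 locus AT2G40620 rose by 1.39 ± 0.22, from 6.48 and 6.38 to 8.00 and 7.64 (2.61-fold, adjusted p = 0.0332). AGL65 rose by 1.34 (adjusted p = 0.04 in limma, 0.056 with an intensity trend). Its T0 signals of 4.53 and 4.80 were also near the background. AGL94 stayed near 3 on all arrays.

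Markers of other cells of the flower were read beside these genes. Of 8 sperm cell markers 1 was measured, MGH3, a histone of the male gametes, which rose by 2.61 ± 0.42 (adjusted p = 0.035) from 5.94 and 4.88 to 8.17 and 7.88. Of the 24 other late pollen markers 2 were measured, and TUA1, a pollen tubulin, rose by 2.61 ± 0.34 (adjusted p = 0.0256) while ACT12, a pollen actin, changed by 0.90 ± 0.48 (adjusted p = 0.317). The tapetum is the anther layer that feeds young pollen and is lost as pollen matures. Of its 25 markers 5 were measured and 3 fell, by 4.39 to 6.19, the largest being SHT (adjusted p = 0.0143 in limma). The T24 signals of SHT and AT1G75920 were under 5, near the background, so the sizes of their falls are approximate. Of all probe sets 6.39% were called higher and 6.84% lower.

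Summed over the 5 tapetum genes, the linear signal was 14536 and 4800 at T0 and 1855 and 393 at T24. ATA27 and AT5G07230 weigh most in these sums. ATA27, called lower, read 12.90 and 11.20 at T0 and 8.31 and 6.79 at T24. AT5G07230 read 12.00 and 10.00, then 10.48 and 7.63, so its groups overlapped (change -1.95 ± 1.23, adjusted p = 0.392 in limma). AMS, a regulator of the tapetum, changed by -0.24 ± 0.29 (adjusted p = 0.683) and read 5.44 to 6.15. Summed over the 9 pollen pectin loci, the linear signal was 3006 and 1551 at T0 and 15156 and 17408 at T24. AT3G07820, the brightest of them on every array, weighs most in these sums. It read 10.90 and 9.70 at T0 and 12.98 and 12.95 at T24. RMA lists no gene at 0, so no marker can be called absent. TUA1, MGH3 and 7 pollen pectin loci thus rose while 3 tapetum genes fell between the same groups, and the part of a shift in cell or stage makeup in the changes of ANX1, ANX2 and AT59 was not tested.

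The replicates of a group also differed in these genes, and not all in the same way. At T24 replicate 2 read higher than replicate 1 by 1.56 for ANX2, 0.49 for ANX1 and 0.07 for AT59, with a median of 0.04 over all probe sets. Over all probe sets replicate 2 was higher than replicate 1 for 55.3% at T0 and 54.3% at T24. In the wall integrity list it was higher for 4 of 5 loci at T24 (median 2.27) and for 4 of 5 at T0 (median 0.42). For the pectin list replicate 2 was higher in 4 of 9 loci at T24, with a median of -0.03. The 5 tapetum genes all read lower on replicate 2, both at T0 (median -1.06) and at T24 (median -0.49). The part of such a difference between replicates in the gap of ANX2 was not tested.

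**Figure D4:**
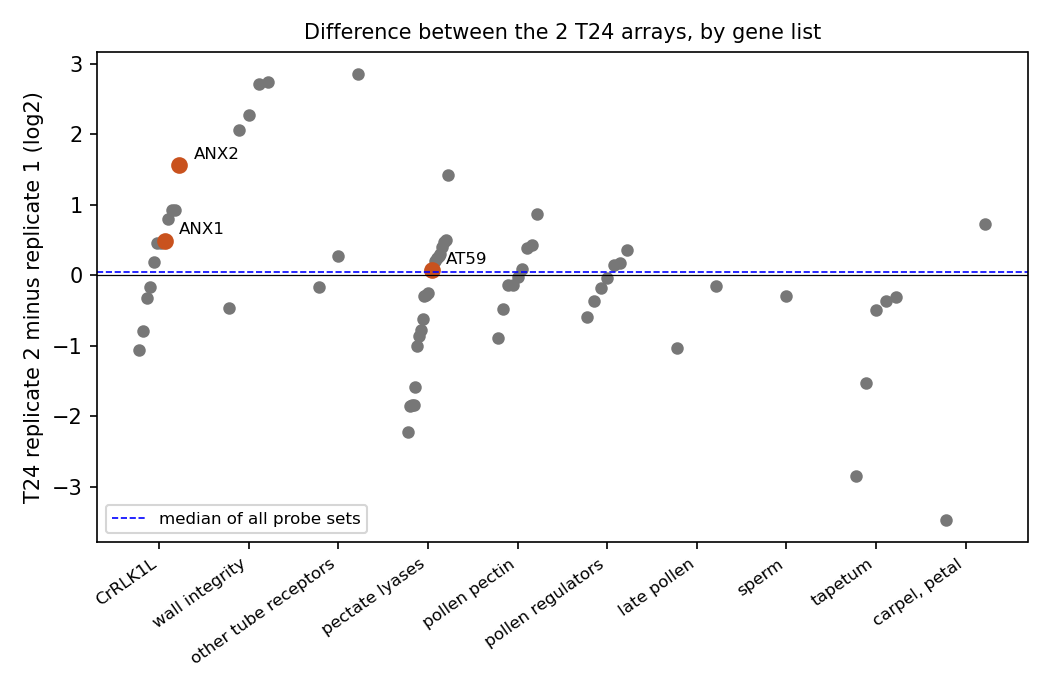
Log2 difference between the T24 arrays, replicate 2 minus replicate 1 (vertical axis), for every measured gene of each list (horizontal axis, 1 grey point for each gene, with ANX1, ANX2 and AT59 in orange); the dashed line is the median of all probe sets, 0.04. ANX2 at 1.56 lies below the wall integrity loci that are above 0, at 2.06 to 2.74. AT59 at 0.07 lies near the line, and all 5 tapetum genes are below 0.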

How the data were processed

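RNA of 4 samples was hybridised to Affymetrix arrays as biotinylated cRNA, per the labels' protocols. The authors deposited 1 table of log2 values, made with RMA (version not given), per the submitters' processing notes. Base 2 is what RMA usually writes, and the range of the values fits it. No further normalization was applied. Depth does not apply to arrays, and 2 arrays per group limit the precision. The titles number the arrays as biological replicates, and p-values cover only the spread between them, which may be technical.

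Gene names came from the platform annotation: 13513 had 1 gene, 503 had several and were not named, and 8730 are unnamed here. By gene identifier, 13436 of the 13513 matched the RefSeq gene table of TAIR10.1, used for names only. Limma 3.58.1 (lmFit, eBayes; R 4.3.3) ran on all 22746 probe sets, unfiltered and with group as its only term, with Benjamini-Hochberg adjustment and calls at 0.05. The fit was tested on simulated data. With 0 probe sets changed it called 0. With 200 changed it recovered 0.0% of changes of 1, 2 or 3, and with 5000 changed 49.7%, 79.7% and 88.1% of them. An exact permutation test of 2 against 2 arrays cannot go below p = 0.333 (two-sided).

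The members and the 11 lists (179 loci from general knowledge, 69 measured) were chosen with earlier results of these data known. Locus codes without a symbol are described only by their list, apart from the bZIP18 locus AT2G40620. A gene with several probe sets was represented by the brightest. Named were the members, all measured loci of the receptor, wall integrity and pectate lyase lists where useful, up to 3 rises and 3 falls called in each other list, the brightest locus of a list with no call, and the 3 nearest patterns of each member. AGL65, AGL94, ACT12, AMS, AT4G28650, AT3G06830, AT5G07230 and AT3G07820 were named after their values were seen. The alternatives tried were a replicate block, quantile scaling, median centring, trended and robust variances, a filter at a mean of 5, a change of at least 1, and leaving out each array.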

Additional observations from a re-analysis of the deposited data

How the results depend on the processing

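The block, the trended and robust variances and the filter leave the change of a member as it is, so they could not move it. Quantile scaling gave changes of 2.31 for ANX1, 3.86 for ANX2 and 4.24 for AT59, and median centring gave 2.42, 4.01 and 4.36. With groups that do not overlap, leaving out an array could not turn a change. Nor could it move a change by more than the SD between replicates. Leaving out each array in turn gave 2.02 to 2.51 for ANX1, 3.07 to 4.64 for ANX2 and 4.00 to 4.41 for AT59. In the fit with a replicate block, 6528 probe sets passed in place of 3010, among them 3009 of the 3010, and 40 of the 69 listed genes in place of 26. Wall integrity loci went from 0 to 4 calls and pectate lyases from 7 to 12 under the block. Across probe sets the T0 and T24 replicate differences had a correlation of 0.63, but there are only 2 pairs, and no label ties a number to a batch.

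Without any 1 array, of T0 or of T24, replicate 1 or replicate 2, there were 0 probe sets and 0 listed genes past the threshold in limma, with 4888 to 5942 probe sets and 32 to 42 listed genes at an unadjusted p under 0.05. Such a fit has 1 residual degree of freedom and takes the spread of the lone array from the other group. The trend, robust variances, quantile scaling, median centring, the filter and the limit of 1 on the change were also applied. In these the count of listed genes stayed between 23 and 28, and that of all probe sets between 2764 and 3240. The filter kept 14678 probe sets. All counts of listed genes in these settings include ANX1, ANX2 and AT59, which were chosen on this change. Median centring moved all changes by 0.16 and put 58.2% of calls on the higher side against 48.3%. Of the 23 listed genes called besides the members, 3 lost their calls with robust variances (AT4G24780, AT3G06830, AGL104), 1 with the trend (AGL65), 1 with median centring (AT4G24780) and none with quantile scaling. AT4G15980 was not in the fit with the filter, and the other 22 kept their calls there.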

Other observations

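The locus AT5G45840, in the list of other pollen tube receptor kinases, resembled the wall integrity loci in its arrays. It read 3.79 and 4.21 at T0 and 5.27 and 8.13 at T24, with a gap of 2.86 between the T24 arrays and a change of 2.70 ± 1.03 that did not pass (adjusted p = 0.181 in limma). This locus was singled out after its values were seen. AT3G12000, in the carpel and petal list and singled out in the same way, differed between replicates in both groups, at 8.73 and 5.00 at T0 and 7.30 and 3.84 at T24, with a change of -1.29 ± 1.79 (adjusted p = 0.728).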
